A study of Mus musculus with 12 samples.

Results

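The comparison described here is that of mutant against control hippocampus at rest, in mice given saline. It rests on the 3 arrays titled saline treated mutant and the 3 titled saline treated control, 6 of the 12 arrays of the series. The other 6 arrays come from kainate-treated mice of the same genotypes. Mutant mice lack CREB and CREM, per the series title, and control animals are called control only. The exact alleles, the strain, and any promoter or Cre line that drives the deletion are not stated in the descriptions used here, which leaves the cells that lost the factors unknown. All mice were littermates of both sexes, 5 to 6 weeks old, which were caged alone and handled for 5 days. They received saline intraperitoneally and were killed 1 hour later. The kainate groups received 20 mg/kg kainate instead. Each array holds RNA pooled from 3 animals, and the sex makeup of the pools is not given. The p-values therefore measure the spread between pools.

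CREB, encoded by Creb1, and CREM, encoded by Crem, are leucine zipper transcription factors that bind the cAMP response element (CRE), a short palindromic DNA motif. Kinases activated by calcium and cAMP phosphorylate them, and they act with co-activators of the CBP and CRTC families. In hippocampal neurons they are known for activity-dependent transcription, synaptic plasticity and the survival of neurons. CREM can stand in for CREB, which is why both are often deleted together. The comparison at rest addresses which transcripts depend on these factors when no seizure agent is given.

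Values are log2 expression levels, and a difference of 1 is a doubling of the signal. Of 11868 probe sets 3541 reached log2 4, the level taken as dim, on at least 3 of the 12 arrays and were tested. Each array was centred on its median over these probe sets, which moved the 6 saline arrays by -0.02 to 0.03. Before centring, the median over all probe sets was 3.26 to 3.28 on the control and 3.32 to 3.37 on the mutant saline arrays. Over the tested probe sets it was 4.98 to 5.01 on control and 4.97 to 5.01 on mutant saline arrays. Centring on the tested probe sets thus left the upward shift over all probe sets in place. With arrays centred on all probe sets instead, the median difference over genes was -0.04 in place of 0.02. Replicate 1 stood apart from replicates 2 and 3 in both genotypes. Control replicate 1 correlated at 0.989 with mutant replicate 1 and at 0.962 and 0.968 with the other control arrays. The fit therefore carried replicate 1 against replicates 2 and 3 as a block, and the differences within each are given below. The difference between the 3' and 5' actin probe sets, a sign of RNA quality, was 1.74 to 1.92 on control and 1.74 to 2.00 on mutant saline arrays.

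In the blocked fit, mutant hippocampus at rest had more Gfap transcript and less of Fbll1, Anks1b, Gm2115 and Slc25a16. Gfap encodes the intermediate filament of astrocytes. These calls depended on the block, as given below. With limma and Benjamini-Hochberg adjustment over all 3541 probe sets, 6 probe sets passed an adjusted p of 0.05, which is 0.169% of those tested. At an unadjusted p under 0.05 there were 358 higher (10.1%) and 308 lower (8.7%). Of the 6 that passed, 5 were lower (0.141%) and 1 higher (0.0282%) in the mutant. Counted by the brightest probe set of each gene, these were 4 genes lower and 1 higher. The smallest difference that passed was 0.89, against a median SE of 0.08. After cyclic loess 0 were higher and 4 lower. No probe set passed when the replicate number was a block of 3 levels (487 at an unadjusted p under 0.05 in limma) or with no block (562). Without control replicate 1 or without mutant replicate 1, both of which leave the same 4 arrays to carry the estimate, 1 passed. Without control replicate 2 or control replicate 3, 0 passed in limma, with 350 and 428 at an unadjusted p under 0.05.

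Creb1 and Crem themselves were each read by 1 probe set above the dim level. Creb1 read 4.88, 4.75 and 5.02 on control replicates 1 to 3 and 4.97, 5.10 and 4.97 on mutant replicates 1 to 3, so the groups overlapped (difference 0.13 ± 0.09, SE; adjusted p = 0.421 in limma). Crem read 4.50, 4.35 and 4.52 on control and 4.66, 4.82 and 4.64 on mutant arrays, a difference of 0.25 ± 0.09 that did not pass (adjusted p = 0.253). Every mutant array lay above every control array for Crem, as on 724 of the 1617 probe sets at levels 4 to 5. Neither transcript was lower in the mutant. The Creb1 probe set carries the suffix for sequence shared within a gene family, so related transcripts may add to it. The remaining Creb1 probe sets read 1.68 to 1.74 and 3.07 to 3.20 and the remaining Crem probe set 3.27 to 3.42, all under the dim level. Whether the probes lie in the deleted part of either gene is not given in the sources used here, so these levels check nothing about the genotype.

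**Figure D1:**
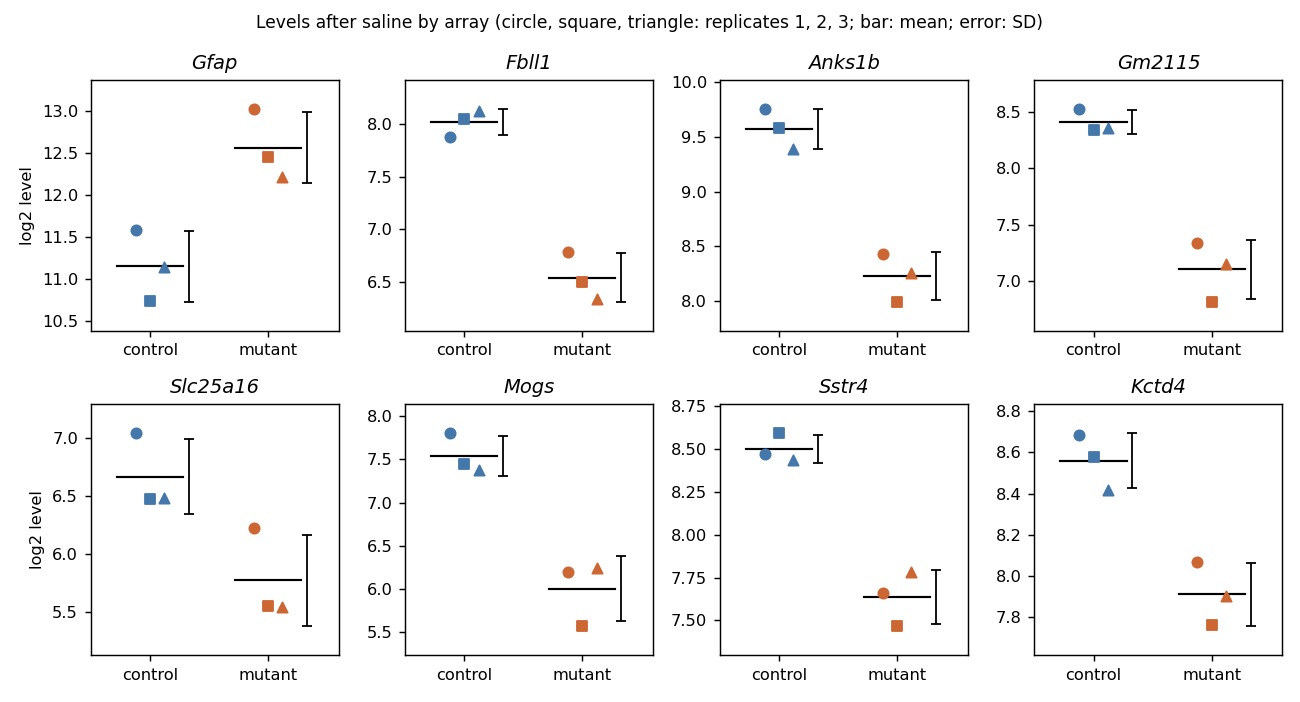
Log2 levels of 8 genes on the 3 control and 3 mutant saline arrays, 1 point per array, with the mean (bar) and SD (error bar) of each group. Gfap lies higher and the other 7 genes lower on all 3 mutant arrays, and in none of the panels do the groups overlap.

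Gfap read 11.58, 10.74 and 11.15 on control replicates 1 to 3 and 13.03, 12.45 and 12.22 on mutant replicates 1 to 3. The lowest mutant array was above the highest control array. The difference was 1.41 ± 0.13 (SE, n = 3 arrays per group), a 2.66-fold rise (adjusted p = 0.0307 in limma), at 1.45 in replicate 1 and 1.39 in the others. Gfap was bright, with means of 11.16 in control and 12.57 in mutant mice. In whole tissue a rise in transcript per astrocyte cannot be told apart from a larger share of astrocytes.

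The other measured astrocyte genes differed by -0.09 to 0.08. Of 30 astrocyte markers 11 had a probe set and 6 passed the filter on dim probe sets. Of these 6, 1 passed higher, 0 passed lower and 4 were positive. The 1 was Gfap, which is itself the 0.0419% of all tested genes that passed higher. Their median difference was 0.03 (-0.05 after cyclic loess), beside 0.02 over all 2387 tested genes. Slc1a2, the astrocytic glutamate transporter, had a difference of -0.07 ± 0.22, Bcan, a proteoglycan of the perineuronal matrix, 0.08 ± 0.17, and Pla2g7, a phospholipase, -0.09 ± 0.08. Apoe, a lipid carrier, passed the filter over 12 arrays but read 3.72 to 4.02 on control and 3.68 to 4.17 on mutant saline arrays, mostly under the dim level. Mlc1, an astrocytic membrane protein, read 5.12 to 5.16 and 5.14 to 5.18. The glial transcription factor Sox9, the connexin gene Gjb6 and the calcium-binding protein gene S100b were under the dim level on all 6 arrays. The summed linear level of the 6 markers was 1911 to 3188 on control and 4960 to 8501 on mutant arrays. Gfap makes up most of that sum. Of the reactive astrocyte list only Gfap and Stat3, a cytokine-activated transcription factor, were measured (2 of 32), and Stat3 differed by 0.08 ± 0.06.

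Microglial genes were few on this array. Laptm5, a lysosomal membrane protein of haematopoietic cells including microglia, read 9.33, 9.35 and 9.12 on control and 10.26, 9.80 and 9.77 on mutant replicates 1 to 3. All 3 mutant arrays lay above all control arrays, yet the difference of 0.68 ± 0.11 did not pass (adjusted p = 0.100 in limma, 0.93 within replicate 1 and 0.55 within replicates 2 and 3). Its probe set carries the suffix for sequence shared within a gene family. Cx3cr1, the fractalkine receptor of microglia, differed by 0.28 ± 0.10 with groups that overlapped, and P2ry12, the purinergic receptor that marks resting microglia, by 0.15 ± 0.08 with groups that did not. These 3 were the measured members of a list of 28, and their median was 0.28, or 0.22 to 0.38 under the other scalings. Of all tested genes 21.1% were higher without overlap, and here 2 of 3 were. P2ry12 was dim, at 4.73 to 5.04, and of the 1617 probe sets at levels 4 to 5, 724 were higher without overlap. C1qc, a complement subunit, read 1.50 to 1.56 on all 6 arrays. The summed level of the 3 genes was 761 to 857 on control and 1102 to 1365 on mutant arrays. Laptm5 makes up most of that sum. Of the oligodendrocyte markers 4 were measured, 2 of them positive, with a median of -0.01 (-0.08 to 0.03 under the other scalings). Ermn, Ugt8a and Olig1 overlapped between the groups, at -0.10, -0.06 and 0.03, and Tspan2 was higher without overlap, at 0.06. The difference between the microglial and oligodendrocyte lists was not tested. Of the genes of the cytokine, complement and interferon response 5 of 48 were measured and 0 passed, and their median was 0.06 (-0.01 to 0.14 under the other scalings). The largest difference among them was that of Tlr4, a receptor for bacterial lipid, at 0.21 ± 0.09, with the cytokine signalling genes Jak1 and Il6st at 0.06 and 0.05.

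Fbll1, a paralog of the nucleolar RNA methyltransferase fibrillarin, had the largest fall among the probe sets that passed. It read 7.88, 8.05 and 8.13 on control replicates 1 to 3 and 6.79, 6.50 and 6.34 on mutant replicates 1 to 3. The groups lay more than 1 log2 unit apart at their nearest points. The difference was -1.48 ± 0.14 (2.78-fold, adjusted p = 0.0307 in limma), and was smaller in replicate 1 (-1.09) than in the other replicates (-1.67).

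Anks1b, a scaffold protein of the postsynaptic density that binds PSD-95, fell on both probe sets that passed. The probe set with the larger change read 9.76, 9.58 and 9.39 on control and 8.43, 7.99 and 8.25 on mutant arrays, a difference of -1.35 ± 0.10 (2.55-fold, adjusted p = 0.0223 in limma). Replicate 1 alone gave -1.32, and replicates 2 and 3 gave -1.36. The brightest probe set, whose suffix marks a sequence family, read 10.55 to 11.09 on control and 9.52 to 9.94 on mutant arrays and fell by 1.14 on the log2 scale (adjusted p = 0.0223). The other 3 probe sets above the dim level gave -0.82, -0.80 and -0.59, and none of them passed (adjusted p = 0.107, 0.107 and 0.129). All 5 thus had negative differences, and on 4 of them the groups did not overlap. A pair of further probe sets read under 3.2 on every array and carry no level. Since the probe sets read the same gene in the same pools, they are not independent replicates.

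**Figure D2:**
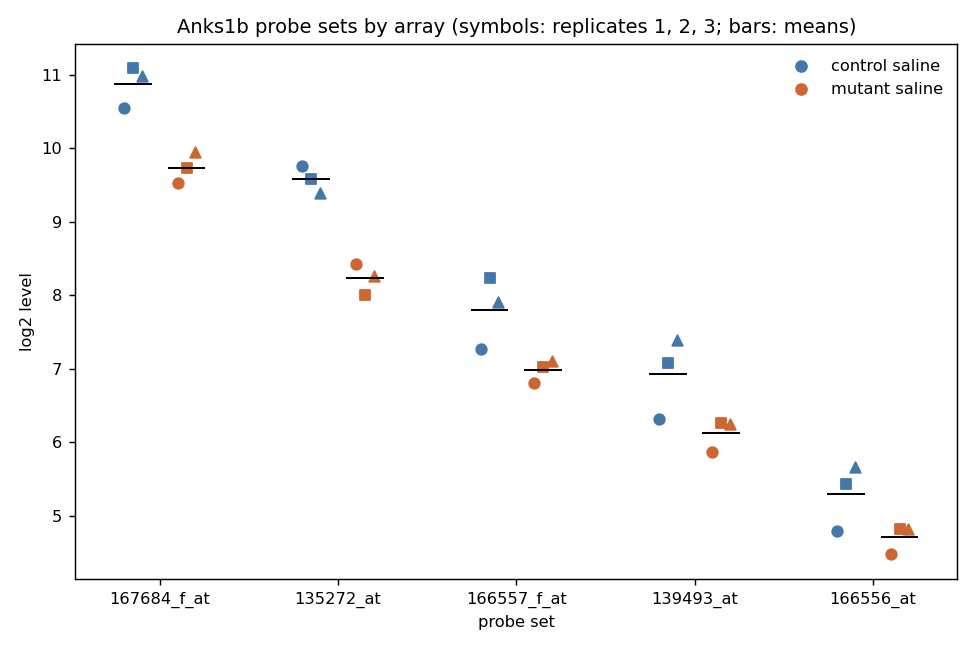
Log2 levels of the 5 Anks1b probe sets above the dim level, ordered by brightness, on the control (blue) and mutant (orange) saline arrays, with group means as bars. The mutant mean lies lower on each of the 5, by 0.59 to 1.35, and only the dimmest has groups that overlap.

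Gm2115, a predicted gene, read 8.53, 8.35 and 8.36 on control and 7.34, 6.81 and 7.15 on mutant replicates 1 to 3. The groups were well separated, and the difference was -1.31 ± 0.10 (2.48-fold, adjusted p = 0.0223 in limma). It was -1.20 in replicate 1 and -1.37 in the others. Its other probe set read 3.55 to 3.64, under the dim level. Slc25a16, a carrier of the inner mitochondrial membrane, read 7.04, 6.48 and 6.48 on control and 6.22, 5.55 and 5.54 on mutant replicates 1 to 3. Replicate 1 was higher than the others in both genotypes, and the mutant lay lower by 0.81 within replicate 1 and by 0.93 within replicates 2 and 3. The difference was -0.89 ± 0.06 (1.86-fold, adjusted p = 0.0223 in limma).

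With the replicate number as a block of 3 levels the adjusted p of these 5 genes in limma was 0.0508 for Anks1b, Gm2115 and Slc25a16. It was 0.0528 for Fbll1 and Gfap, so with that block each call was lost by a narrow margin. The margin was wider with no block, at 0.138 for Fbll1, Anks1b and Gm2115 and 0.305 for Gfap and Slc25a16. Without control replicate 2 or control replicate 3 the adjusted p was 0.171 to 0.221. With all 12 arrays in the fit it was 0.585 to 0.800. That fit takes in 2 kainate arrays that stand apart. Those 2 arrays were set aside after their values were seen, Gfap and Fbll1 among them. Without those 2 arrays the fit of 10 gave adjusted p = 0.00228 for Slc25a16, 0.00345 for Gm2115, 0.00401 for Fbll1 and 0.00479 for Anks1b in limma. For Gfap it gave 0.0865. Except without control replicate 2 or control replicate 3, the differences in these fits have the same size, since the block is balanced over genotype. Only the estimate of their error changed. After quantile normalization the adjusted p in limma was 0.0660 for Gfap and for Fbll1. After cyclic loess it was 0.0879 for Gfap and 0.0600 for Fbll1. Anks1b, Gm2115 and Slc25a16 passed under both scalings.

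**Figure D3:**
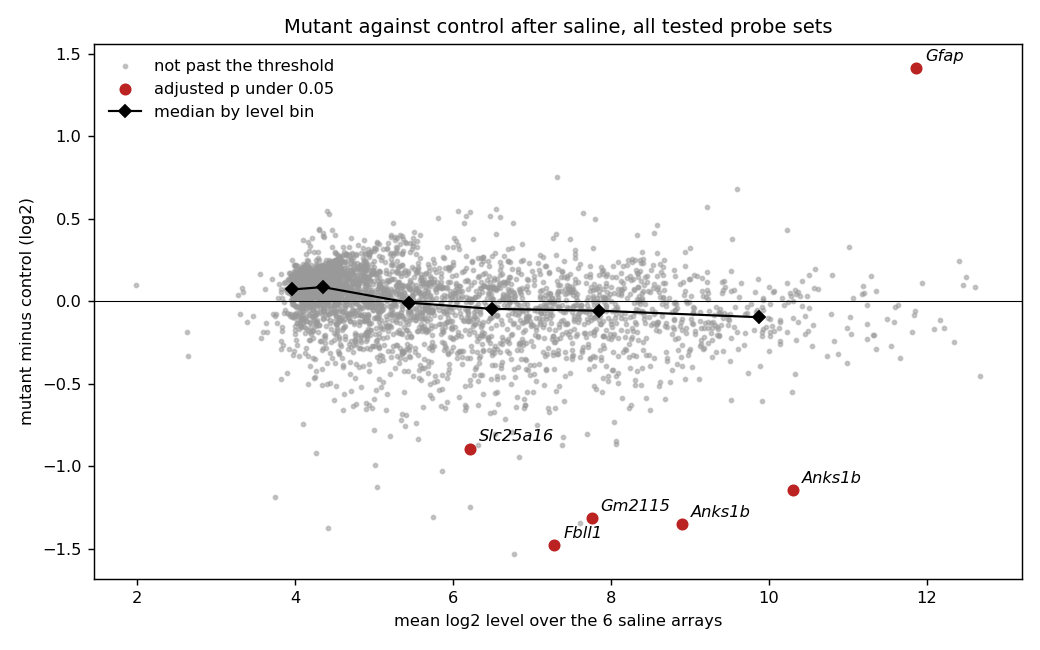
Difference between mutant and control (log2) against the mean level for the 3541 tested probe sets, with those at adjusted p under 0.05 in red and the median of 6 level bins as diamonds. Gfap is the only labelled point above 0, some unlabelled points such as Mogs at -1.53 lie as low as the 5 labelled below it, and the bin medians go from 0.09 at levels 4 to 5 down to -0.10 above 9.

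Dim probe sets tended to read higher in the mutant and bright ones lower. The median difference was 0.09 over the 1617 probe sets at levels 4 to 5 and -0.10 over the 200 above 9. After cyclic loess these medians were 0.00 and 0.07. Groups that did not overlap were correspondingly lopsided, with 936 probe sets higher (26.4%) and 166 lower (4.69%) in the mutant, and 547 and 349 after loess. Small positive differences of dim genes are therefore given here as values only.

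Behind these, 8 more genes had the smallest p-values among those with lower, non-overlapping mutant arrays, and none of them passed. Mogs, the glucosidase that trims the outermost glucose from new N-glycans in the endoplasmic reticulum, read 7.80, 7.44 and 7.37 on control and 6.20, 5.57 and 6.24 on mutant replicates 1 to 3. Its difference of -1.53 ± 0.17 was larger in size than that of any called gene, with a wider error (adjusted p = 0.0578 in limma). The probe set bears the suffix of a sequence family, so related transcripts may add to it. Sstr4, an inhibitory somatostatin receptor of hippocampal pyramidal cells, read 8.47, 8.59 and 8.44 on control and 7.66, 7.47 and 7.78 on mutant arrays (difference -0.87 ± 0.10, adjusted p = 0.0578). Kctd4, a BTB domain protein, read 8.68, 8.58 and 8.42 against 8.07, 7.76 and 7.90 (difference -0.65 ± 0.08, adjusted p = 0.0578). Its other 3 probe sets gave -0.34, -0.34 and -0.25 with groups that overlapped.

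Rprml, a membrane protein related to the p53 target reprimo, was bright and differed by -0.60 ± 0.07 (10.43, 10.11 and 10.12 against 9.80, 9.44 and 9.62). Kcnab3, a beta subunit of voltage-gated potassium channels, differed by -0.64 ± 0.07 (adjusted p = 0.0520 in limma). Both had groups that did not overlap. Egfl6, a secreted protein with EGF-like repeats, differed by -1.31 ± 0.18 and Gpr101, an orphan G protein-coupled receptor, by -1.13 ± 0.17. Gpr101 read 4.23 to 4.70 on mutant arrays, close to the dim level, so that its difference is less certain in size. Mcts2, a retrogene related to a translation re-initiation factor gene, differed by -0.56 ± 0.08.

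Promoter windows were searched for the CRE, the motif that CREB and CREM bind. Windows of 300 bases, 250 before to 50 after an annotated start, came from RefSeq (GRCm38.p6) and covered 10 of the 12 named lower genes and 10 of the 12 named higher genes. The full palindrome TGACGTCA was in 0 of the 10 lower and 1 of the 10 higher genes, that of Napa, and in 3.38% of the 1926 tested genes with a window. The short CRE motif, TGACG or its reverse complement CGTCA (both strands, and contained in the palindrome), was in 5 of 10 lower and 5 of 10 higher genes, beside 34.6% of the tested genes and 20.8% of all windows. A match describes the letters of the window and is no evidence of binding. Of the called genes only Slc25a16 and Anks1b had a match. These are shown with Mogs, which held the most matches among the named lower genes, as the 250 bases before the start on the gene's strand, with the short motif in capitals. The Slc25a16 window is chr10:62920383-62920632 (plus strand), with matches that begin 83 and 30 bases before the start. The Mogs window is chr6:83115256-83115505 (plus strand), with matches 244, 113 and 34 bases before it. The Anks1b window is chr10:90576441-90576690 (plus strand), 1 of 5 annotated starts of this gene, with a match 204 bases before the start.
Slc25a16: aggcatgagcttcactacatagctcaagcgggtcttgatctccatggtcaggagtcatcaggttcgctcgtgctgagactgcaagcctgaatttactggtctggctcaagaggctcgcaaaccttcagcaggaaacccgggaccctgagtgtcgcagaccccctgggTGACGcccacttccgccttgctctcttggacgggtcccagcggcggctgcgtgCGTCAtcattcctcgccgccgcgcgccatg
Mogs: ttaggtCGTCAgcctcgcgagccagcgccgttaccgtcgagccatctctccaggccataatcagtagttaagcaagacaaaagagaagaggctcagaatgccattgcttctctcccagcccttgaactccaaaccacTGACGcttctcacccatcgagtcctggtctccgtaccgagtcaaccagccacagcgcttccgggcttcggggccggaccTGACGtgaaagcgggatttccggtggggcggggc
Anks1b: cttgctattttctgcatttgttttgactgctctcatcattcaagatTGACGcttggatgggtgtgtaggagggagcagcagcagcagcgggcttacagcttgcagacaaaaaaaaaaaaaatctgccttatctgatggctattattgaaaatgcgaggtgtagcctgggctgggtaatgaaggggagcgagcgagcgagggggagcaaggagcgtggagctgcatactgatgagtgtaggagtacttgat

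Among genes with higher, non-overlapping mutant arrays, none but Gfap passed. Rasgef1b, a guanine nucleotide exchange factor for Ras-type GTPases, read 9.10, 8.84 and 8.86 on control and 9.82, 9.37 and 9.32 on mutant replicates 1 to 3 (difference 0.57 ± 0.07, adjusted p = 0.0679 in limma). Its other probe set gave 0.09 with groups that overlapped. Lgals3bp, a secreted glycoprotein that binds galectin-3, read 7.60, 7.26 and 7.28 against 8.21, 7.81 and 7.71 (difference 0.53 ± 0.07, adjusted p = 0.0624). Both genes lay higher on every mutant array, with replicate 1 the highest in each genotype.

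Col23a1, a transmembrane collagen, differed by 0.56 ± 0.07 (adjusted p = 0.0743 in limma) and Csgalnact1, an enzyme that starts chondroitin sulphate chains, by 0.54 ± 0.08 (adjusted p = 0.0857). Csgalnact1 read 5.86 to 6.02 on control and 6.38 to 6.56 on mutant arrays. Colec12, a scavenger receptor, differed by 0.41 ± 0.08, Zdhhc6, a palmitoyltransferase, by 0.47 ± 0.11 and Ahi1, a protein of the ciliary transition zone, by 0.32 ± 0.06. Trmt13, a tRNA methyltransferase, differed by 0.26 ± 0.06 at a level under 5. Napa, a cofactor that helps take SNARE complexes apart, differed by 0.32 ± 0.07. For Syn2, a synapsin of the vesicle pool, a probe set with a family suffix gave 0.33 ± 0.08 while the brightest gave -0.17, so its probe sets disagree in direction.

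The named genes were also read on the kainate arrays, which the comparison after saline does not use. Gfap read 11.47 and 11.58 on control kainate replicates 1 and 2 but lay within the range of the mutant arrays in the library labelled control kainate replicate 3. Fbll1 read 7.81, 7.83 and 6.56 on the same 3 arrays. On mutant kainate replicates 1 to 3 Gfap read 12.81, 13.13 and 11.84, and Fbll1 6.52, 6.59 and 7.75. The library labelled mutant kainate replicate 3 thus lay close to the controls for both genes. For Gm2115 (7.06), Slc25a16 (5.94) and the Anks1b probe set with the larger change (8.06) it lay between mutant kainate replicates 1 and 2. The brightest Anks1b probe set read 10.25 there, as on control kainate replicate 1. Before centring, the median of this library over the tested probe sets was 4.71, the lowest of the 12 arrays. Values are therefore given from replicates 1 and 2 and, beside them, from all 3 as labelled. The arrays were set apart by values that include named genes, so agreement in replicates 1 and 2 is no independent support. In replicates 1 and 2 the mutant minus control difference after kainate was 1.45 for Gfap, -1.27 for Fbll1, -1.27 for Anks1b, -1.45 for Gm2115 and -0.73 for Slc25a16. With all 3 it was 0.58, -0.45, -0.92, -0.93 and -0.32 in the same order. In replicates 1 and 2 all 12 named higher genes were positive and all 12 named lower genes negative. Of all 3541 probe sets 2694 had the same sign after saline and in these kainate arrays, so agreement in sign was common. With all 3 arrays 12 of the 12 lower and 5 of the 12 higher genes kept their sign. The share over all probe sets was not counted for all 3 arrays. Mogs (-1.54), Sstr4 (-0.98) and Kctd4 (-0.64) differed in replicates 1 and 2 by about as much as after saline. Col23a1 (0.12) and Csgalnact1 (0.07) differed by less there than after saline, but the difference between treatments passed for neither (adjusted p = 0.999 each, limma on 10 arrays). No probe set passed in limma for the interaction of genotype and treatment with 12 arrays (36 at an unadjusted p under 0.05) or with 10 (58).

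**Figure D4:**
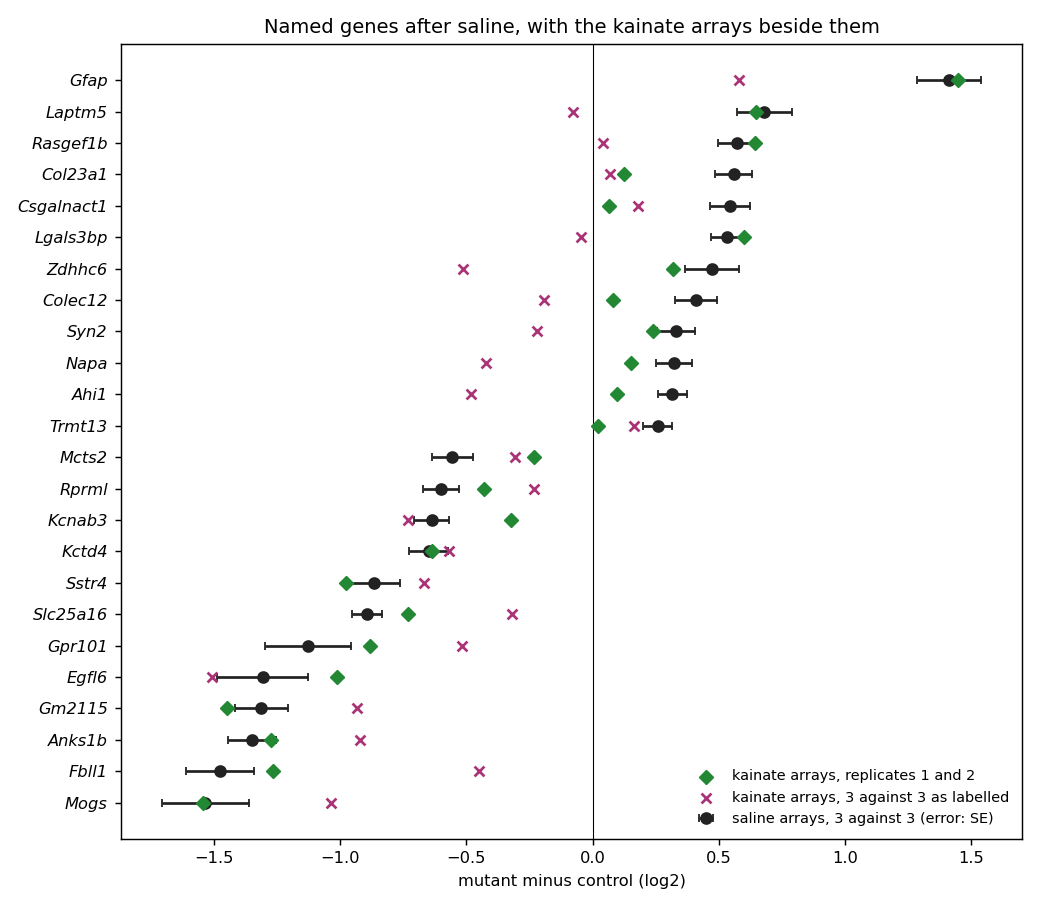
Mutant minus control differences (log2) of the 24 named genes on the saline arrays (black, with SE), beside the differences on the kainate arrays from replicates 1 and 2 (green) and from all 3 replicates as labelled (purple crosses). For Gfap the 3 values are 1.41, 1.45 and 0.58, and all 24 green points lie on the same side of 0 as the black ones.

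Genes of the CREB pathway were then described as lists, counted by the brightest probe set of each gene. For these counts the background over the 2387 tested genes is 9.17% higher and 10.2% lower at an unadjusted p under 0.05, and 21.1% higher and 5.49% lower with groups that did not overlap. Of the 2387 genes 1088 had negative differences. Of 29 genes of the CREB family, its kinases and co-activators, 6 were measured and 0 passed. Crtc1, a co-activator, differed by 0.26 ± 0.08 and Crtc3, its relative, by -0.14 ± 0.10, both with groups that overlapped. Prkaca, the catalytic subunit of protein kinase A, differed by less than 0.01. Rps6ka3, a kinase that phosphorylates CREB, differed by -0.18 ± 0.08 at a level near 4.

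Of 51 genes known to respond to cAMP or to be bound by CREB, 6 were measured, 0 passed, and the median was -0.11. Sik1, a salt-inducible kinase that restrains CREB co-activators, read 5.20, 5.35 and 4.60 on control and 4.42, 4.39 and 4.43 on mutant replicates 1 to 3. The mutant arrays lay together below all control arrays, while the control arrays were spread (difference -0.64 ± 0.19, adjusted p = 0.237 in limma). Penk, which encodes proenkephalin, read 5.31 on replicate 1 of both genotypes, and 4.13 and 4.33 on mutant against 5.12 and 5.19 on control replicates 2 and 3. Its difference of -0.61 ± 0.20 thus came from replicates 2 and 3. Bcl2, the survival factor, and Mcl1, of the same family, differed by 0.01 and -0.08, and Syn1, a synapsin, by -0.13 ± 0.08.

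Activity-induced genes at rest gave no gene past the threshold. Of 36 activity-induced transcription factors 5 were measured (0 passed, 3 of 5 positive), and of 51 effector genes 10 were measured (0 passed, 7 of 10 negative). Egr3, a zinc finger factor, read 9.40, 9.05 and 9.07 on control and 9.27, 8.27 and 8.56 on mutant arrays (difference -0.47 ± 0.14, groups overlapping on replicate 1). Its relative Egr4 differed by -0.10 ± 0.14 and Jun, of the AP-1 factors, by 0.14 ± 0.07 at a level near 4. Kcnj2, an inward rectifier, read 5.90, 6.54 and 6.21 against 6.68, 6.69 and 6.83, higher on all 3 mutant arrays (difference 0.52 ± 0.13, adjusted p = 0.211 in limma). Rgs4, which speeds the shut-off of G proteins, differed by 0.30 ± 0.09. Peak1, a pseudokinase of the cytoskeleton, read 6.97, 6.73 and 6.70 on control and 6.45, 6.19 and 6.67 on mutant arrays, lower with a narrow gap (difference -0.37 ± 0.14).

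Sterol genes had differences of both signs. Of 48 genes of sterol synthesis, uptake and handling 9 were measured, 0 passed, and the median was 0.01. Tm7sf2, a sterol C14 reductase of cholesterol synthesis, read 6.62, 6.52 and 6.29 on control and 5.96, 5.96 and 5.98 on mutant replicates 1 to 3 (difference -0.51 ± 0.09, adjusted p = 0.107 in limma). Lss, which closes the sterol rings, read 5.21, 5.02 and 5.21 against 5.33, 5.58 and 5.41, higher on all mutant arrays (0.29 ± 0.10, adjusted p = 0.246). Nsdhl, a later enzyme of the same route, lay 0.18 ± 0.07 lower without overlap, and Cyp46a1, the neuronal cholesterol 24-hydroxylase, differed by -0.26 ± 0.09 with overlap. Mvd and Msmo1, enzymes of the same pathway, each differed by 0.11 at mean levels of 4.07 to 4.41, where dim probe sets tended to read higher in the mutant. Pmvk, a mevalonate pathway kinase, differed by -0.08. Lss, Mvd and Msmo1, all positive, were dimmer than the negative genes named here.

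Of 26 measured voltage-gated and potassium channel genes 19 were negative, beside 1088 of all 2387 tested genes. At an unadjusted p under 0.05 in limma 5 were lower and 3 higher, and 0 passed. The median was -0.11 (-0.18 to -0.03 under the other scalings, with 16 to 19 negative). Bright probe sets of any kind tended to read lower in the mutant, with a median of -0.06 at levels 7 to 9. After cyclic loess the list median was -0.04. Scn3b, a beta subunit of sodium channels, read 10.64, 10.55 and 10.53 on control and 10.11, 9.82 and 10.14 on mutant arrays (difference -0.55 ± 0.09, adjusted p = 0.106 in limma). Kcnj11, the pore of the ATP-sensitive potassium channel, differed by -0.45 ± 0.15 and Kcnq3, a subunit of the M-current channel, by -0.30 on its brightest probe set and by -0.59, without overlap, on the other. Kcnd2 (0.17) and Kcnj4 (0.30), of the A-type and inward rectifier families, were positive.

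Postsynaptic genes held 1 of the called genes. Of 15 measured genes of glutamate receptors and the postsynaptic density 1 passed lower and 0 higher. That gene, Anks1b, is itself 1 of the 4 that make up the 0.168% of all tested genes that passed lower. Of the 15, 12 were negative, and 9 to 15 under the other scalings. Their median was -0.09 (-0.16 to -0.06 under the other scalings, with -0.09 after cyclic loess). Grin2b, an NMDA receptor subunit, read 6.64 on control and 5.53 on mutant replicate 1, and 9.21 and 9.44 against 8.75 and 9.26 on replicates 2 and 3. The gap between replicates was thus larger than the genotype difference of -0.58 ± 0.22. Camk2d, a subunit of the calcium/calmodulin kinase CaMKII, differed by -0.50 ± 0.19, with 0.01 in replicate 1, where both arrays were under the dim level, and -0.76 in the others. Shank2, a scaffold, differed by -0.28 ± 0.12 and Gria1, an AMPA receptor subunit, by -0.20. Of 7 genes of GABA receptors and the inhibitory synapse 6 were negative and 0 passed. Slc12a5, the neuronal chloride extruder, read 11.31, 11.00 and 11.20 on control and 10.76, 10.67 and 10.98 on mutant arrays, lower without overlap (difference -0.37 ± 0.12, adjusted p = 0.246 in limma). Gphn, the scaffold gephyrin, differed by -0.19 ± 0.10, Gabarapl2, a trafficking and autophagy protein, by -0.11 ± 0.08 and Gabrd, an extrasynaptic receptor subunit, by 0.25 ± 0.15.

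Presynaptic genes went both ways. Of 23 measured genes 14 were negative, 7 were lower and 3 higher at an unadjusted p under 0.05, and 0 passed. Their median was -0.11 and turned to 0.06 after cyclic loess. Atp6v0a1, a subunit of the vesicular proton pump, had the largest difference of the list, -0.94 ± 0.37. It read 9.29, 5.83 and 6.79 on control and 8.75, 4.66 and 5.68 on mutant replicates 1 to 3, so the gap between replicates exceeded that between genotypes. Pclo, a scaffold of the active zone, read 8.67, 8.74 and 8.48 on control and 8.29, 7.75 and 8.32 on mutant arrays (difference -0.51 ± 0.17). Syt4, a synaptotagmin, differed by -0.44 ± 0.10, and Slc17a6, a vesicular glutamate transporter, by -0.48 ± 0.17, at -0.06 within replicate 1. Slc17a6 also marks regions that border the hippocampus, and of the 5 measured markers of such regions 3 were positive, with a summed level of 538 to 604 on control and 421 to 581 on mutant arrays. The others were Penk, given above, Zic1 (0.10 ± 0.22) and Rorb (0.15 ± 0.11), both transcription factors, and Rgs9 (0.03), of the striatum. Whether dissection had a part in this was not tested. Synpr (0.32) and Syt6 (0.35), both vesicle membrane proteins, were positive at dim levels of 4.87 to 5.53. Napa, given above, was positive at levels of 8.81 to 9.25. Of 31 genes of synaptic adhesion and extracellular matrix 20 were negative, 0 passed and the median was -0.06. Slitrk4, a synaptic adhesion protein, read 6.90, 7.03 and 6.56 on control and 6.28, 6.13 and 6.43 on mutant arrays, lower without overlap (difference -0.55 ± 0.15). Lrrtm2, a ligand of neurexins, differed by -0.40 ± 0.14 and Pcdh9, a protocadherin, by -0.55 ± 0.24, both with groups that overlapped.

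Neuropeptide and receptor genes held Sstr4 and Penk, given above, and otherwise small differences. Of 9 measured genes 5 were negative, 0 passed and the median was -0.07. Htr7, a serotonin receptor coupled to cAMP synthesis, differed by 0.28 ± 0.09 and Oprl1, the nociceptin receptor, by -0.15 ± 0.09. Among genes of apoptosis and p53 targets 7 of 47 were measured, and in limma 0 passed and 0 reached an unadjusted p under 0.05. Bcl2l2, a survival factor, differed by -0.18 ± 0.11 Mdm2, which restrains p53, by 0.08 ± 0.07 and Plagl1, a zinc finger factor, by -0.05 ± 0.18. Of the heat shock genes 3 of 33 were measured and 0 passed, with Dnajb2, a neuronal co-chaperone, at 0.23 ± 0.06 and the chaperones Hspa9 and Hspa4l both at -0.13.

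**Figure D5:**
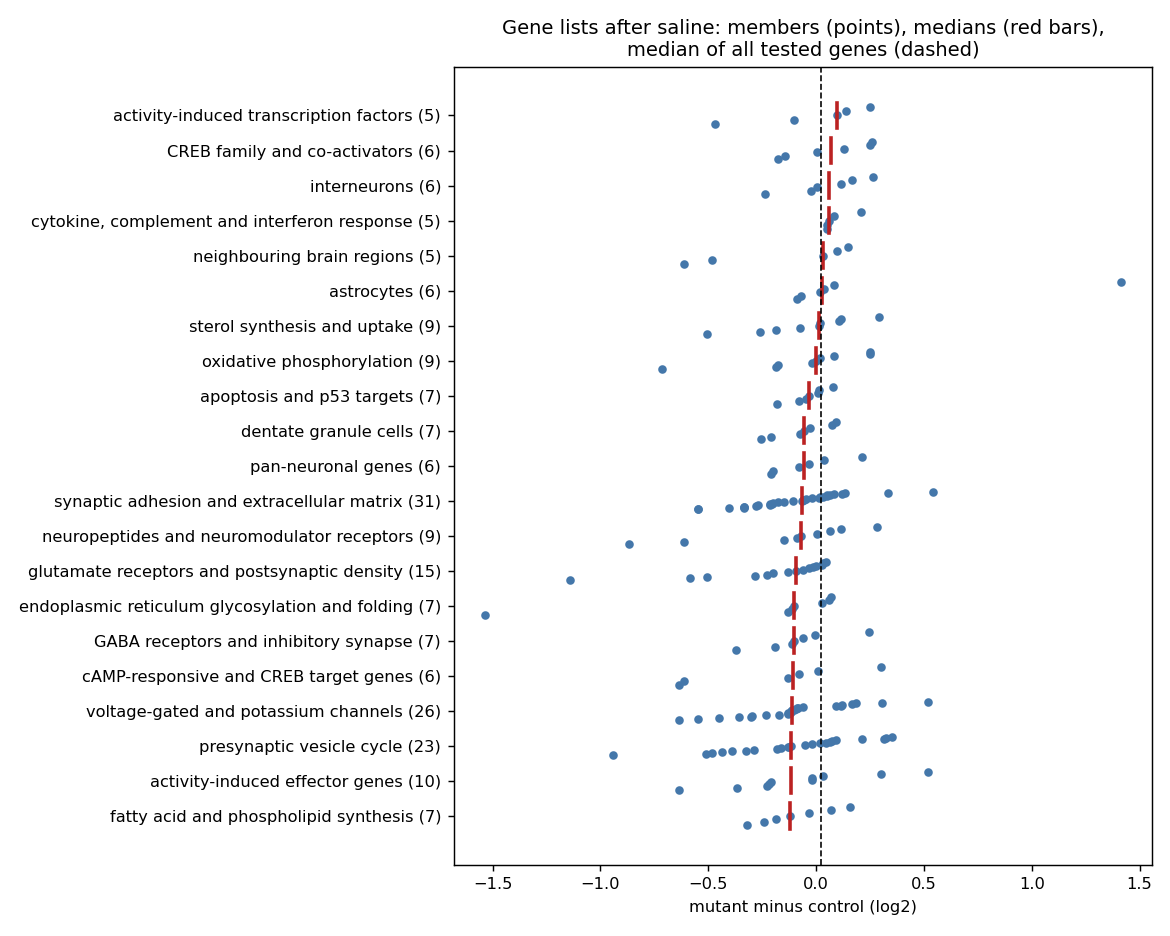
Mutant minus control differences (log2) of the measured members of the 21 lists with at least 5 measured genes (points), with each list's median (red bar) and the median of all tested genes (dashed line, 0.02). List medians lie between -0.12 and 0.10, and the points far from 0 are few single genes such as Gfap at 1.41 and Mogs at -1.53.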

How the data were processed

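Hippocampal RNA was hybridised to Affymetrix murine genome U74 array C. The deposited values are log2 GCRMA summaries per probe set, made by the authors in R 2.4.1 per the submitters' processing notes; the GCRMA version is not given in the sources used here. No counts underlie them, and precision is limited by having 3 arrays in each group.

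Control probe sets (66) were not used. Symbols were taken from GEO's platform annotation and updated through the RefSeq gene table (7704 of 7717 probe sets with 1 symbol were found; 150 had several and 4001 none and are not named). The 6 saline arrays were fitted in R 4.3.3 with limma 3.58.1 (lmFit, eBayes) as genotype plus a block of 2 levels, with 3 residual degrees of freedom. The deviations of same-numbered arrays from their group means correlated at 0.855, 0.470 and 0.482, each above the 0.1 set as a rule for pairing. With replicate 1 apart in both genotypes, replicates 2 and 3 deviate together from their group mean. The rule therefore cannot show that replicates 2 and 3 pair by number. Replicate 2 of either genotype was more like replicate 3 of the other (0.652 and 0.669), so the numbers do not tell 2 from 3. The fit reported keeps replicates 2 and 3 in 1 block, and the one paired by number stands beside the calls.

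Named genes are Creb1 and Crem, the called genes without overlap, and those with the smallest p-values among non-overlapping genes up to 12 per direction. From each of the 32 lists up to 4 members with the largest differences are named. Other members named beside them, such as Gria1, Prkaca and Kcnq3, were chosen after their values were seen. The comparison, the lists and the rules were chosen with earlier results of these data known. Alternatives were other blocks, arrays, scalings, filters and error estimates, and leaving out each array.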

Additional observations from a re-analysis of the deposited data

How the results depend on the processing

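The count of 6 probe sets was 9 with values as deposited, 7 after quantile normalization, 9 with the dim filter on the 6 saline arrays alone, 6 with eBayes trend and robust settings, and 8 in the fit of 10 arrays. It was 0 with no replicate block, 0 with the replicate block of 3 levels, and 0 with all 12 arrays (191 at an unadjusted p under 0.05 in limma). It was 1 when arrays were centred on the median of all probe sets and 1 with replicates 2 and 3 only. It was 16 with no filter (4 higher, 12 lower) and 34 with the dim level at log2 5 (7 higher, 27 lower), which also moved the centring. All 6 were among the 16 and among the 34. Leaving out 1 array gave 0 to 5. In 19 alternative settings the 24 named genes kept their direction, Trmt13 in the 18 that held it. They were chosen for groups that did not overlap, so leaving out an array could not reverse them. Other blocks and error estimates left the difference itself unchanged. In these settings the direction was thus fixed in advance. Gfap ranged from 1.30 to 1.66, Fbll1 from -1.67 to -1.37, Anks1b from -1.42 to -1.23, Gm2115 from -1.39 to -1.20 and Slc25a16 from -0.96 to -0.81. Gfap passed in 5 of the 19, Fbll1 in 9, and the other 3 in 10. The settings are not all distinct. Replicates 2 and 3 only, without control replicate 1 and without mutant replicate 1 gave the same estimates and adjusted p. Genes near log2 4 have sizes that depend on the background correction of the deposited values. Of the listed genes 224 were measured.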

Other observations

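Markers of hippocampal fields were sparse on the array. Of the CA1 markers 3 of 21 were measured. Lefty1, a secreted antagonist of Nodal signalling, read 8.09, 8.60 and 8.17 on control and 7.30, 6.60 and 6.93 on mutant replicates 1 to 3, lower without overlap (difference -1.34 ± 0.22, adjusted p = 0.100 in limma; -1.51 in kainate replicates 1 and 2). Its probe set carries a family suffix. The other CA1 markers, Zdhhc2 and Klk8, differed by -0.06 and 0.03. Dentate granule cell markers (7 of 25 measured) had a median of -0.06, those of CA3 and CA2 (4 of 28) -0.01, interneurons (6 of 28) 0.06 (-0.01 when centred on all probe sets) and neurons at large (6 of 25) -0.06, with 0 genes past the threshold in each. Of these medians the dentate one, the neuronal one and the one of CA3 and CA2 were positive after cyclic loess, at 0.06, 0.03 and 0.04. In the dentate list Plk5 (-0.26 ± 0.14) and Slc29a4 (-0.21 ± 0.18) were negative, mainly in replicate 1, and C1ql3 (0.08 ± 0.10) and Stxbp6 (0.09 ± 0.06) positive. In that of CA3 and CA2 the values were 0.17 ± 0.08 for Cpne4, -0.06 for Cpne7, -0.05 for Plagl1 and 0.02 for Tyro3. Among interneuron genes Maf differed by 0.27 ± 0.08, Pvalb, the calcium buffer parvalbumin, by -0.24 ± 0.13, Nkx2-1 by 0.17 and Nxph1 by 0.11. Of the neuronal genes Elavl4 differed by -0.21, Celf4 by -0.20, Nrgn by -0.08 and Slc17a7, a vesicular glutamate transporter, by 0.21.

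Vascular and choroid plexus markers gave 0 genes past the threshold in limma. Of 4 measured markers of endothelium, pericytes and blood 3 were negative, with a median of -0.12, and the values were -0.23 ± 0.12 for Flt1, a VEGF receptor, -0.23 ± 0.13 for Apold1, -0.01 for Slco1c1 and 0.11 for Acta2. Sostdc1, a choroid plexus gene, varied from 3.17 to 6.34 over the mutant and from 4.07 to 5.84 over the control arrays, and Dynlrb2, of cilia, differed by 0.12 ± 0.07. Of the sex-linked genes Eif2s3x differed by -0.10 ± 0.12, and Kdm5c, at 0.23 ± 0.08, was higher without overlap at dim levels of 4.73 to 5.10. The clock genes Csnk1e and Rorb differed by -0.17 ± 0.16 and 0.15 ± 0.11.

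No gene of the mitochondrial, ribosomal or lipid lists passed in limma. Of 9 genes of oxidative phosphorylation 5 were negative, with Ndufs4, a subunit of complex I, at 6.86, 7.19 and 6.99 on control and 6.34, 5.93 and 6.62 on mutant arrays (difference -0.71 ± 0.19, adjusted p = 0.213 in limma). Ndufa12 and Ndufab1, of complex I, differed by -0.18 ± 0.09 and 0.25 ± 0.08, and Cox7a2, of complex IV, by 0.25 ± 0.09. Of 4 ribosomal protein genes 3 were positive, with a median of 0.09 (0.02 to 0.19 under the other scalings), and the values were 0.27 ± 0.13 for Rplp2, 0.15 ± 0.08 for Rps20, 0.03 for Rps26 and -0.06 for Rplp0. Of 7 genes of fatty acid and phospholipid synthesis 5 were negative, with a median of -0.12. Elovl4, which makes very long fatty acids, lay lower without overlap (-0.24 ± 0.08), and Pcyt1b, Elovl7 and Fads2 overlapped at -0.32, -0.18 and 0.15. Of 7 genes of glycosylation and folding in the endoplasmic reticulum, Mogs stood alone, and the next largest differences were -0.13 (Alg11), -0.11 (Uggt2) and -0.10 (Ssr1). With the dim level at log2 5, 34 probe sets passed in limma, among them Mogs (-1.45 ± 0.15, adjusted p = 0.00184), Sstr4 (-0.78 ± 0.11, adjusted p = 0.0136), Lefty1 (-1.26 ± 0.18, adjusted p = 0.0157) and Laptm5 (0.76 ± 0.12, adjusted p = 0.0211). Also among them were 4 of the 5 Anks1b probe sets. These were named after their values were seen.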
